A study of Mus musculus with 17 samples.

Results

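The light chain of B1-8hi germinal centre (GC) B cells was read base by base, from framework region 1 (FWR1) to FWR4, and its 328 bases were divided into 4 framework regions and 3 complementarity-determining regions (CDRs). These 7 regions are the light-chain members of the 14 framework and CDR regions of both chains. Cells were taken from all 6 pools when they held 1 productive Ighv1-72/Ighj2 heavy chain and 1 productive Iglv1/Iglj1 light chain and carried the hashtags of a single mouse. A mutation was a base that differed from the most frequent light-chain sequence of the cells at 7 days post immunization (dpi), which was carried by 1718 of 3456 such cells. Of 22105 cells with this pairing and a mouse, 22038 had a light chain of the same length and were used, and the other 67 were left out.

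The mutation frequency is the number of changed bases per 1000 bases read, averaged over the cells of a mouse, and the mouse is the replicate. Donor B cells carried the B1-8hi heavy chain on 1 knocked-in allele, which gives binding to the hapten NP, whereas their lambda light chain was rearranged by each B cell from its endogenous genes. They were transferred into OVA-primed CD45.1 hosts, which were immunized with NP-OVA in the footpad, and GC B cells were sorted from lymph nodes. A minor fraction of the donor cells expressed DEC-205 and the Col1a1 tetO-H2B-mCherry reporter, which is driven by Vav-tTA, and the remainder were Ly75-/-. Anti-DEC-OVA, an antibody to DEC-205 that carries OVA into DEC-205+ B cells for presentation to T cells, was given at 7 dpi. The time course held 39 mice of 2 experiments: 9 mice at 0 h (7 dpi), 6 untreated and 9 treated mice at 48 h (9 dpi), and 8 untreated and 7 treated mice at 72 h (10 dpi). The paper describes the time-course cells as DEC-205+ GC B cells. A separate set of 2 experiments held 4 mice each at 7 dpi, at 10 dpi without treatment and at 10 dpi with treatment, where the treated cells were sorted as DEC-205+ and mCherry-low. Doxycycline was given after anti-DEC-OVA, so that mCherry was diluted with each division. The mCherry-low gate, which the paper describes for treated cells only, thus took cells that had divided more. In the last experiment, donor cells carried the Rosa26 DHB-tdTomato reporter of CDK2 activity, and CDK2hi and CDK2low cells of the same 7 mice were separated by image-based sorting at 72 h after anti-DEC-OVA. The pool labels C and N were read as cytoplasmic (CDK2hi) and nuclear (CDK2low) reporter. Each population was its own pool, so effects of pool and population cannot be told apart. Here all sorted cells were used, with no selection on the dark zone. Cells per mouse ranged from 16 to 1147, and the light chain of a cell was read with a median of 145 UMIs.

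Somatic hypermutation is begun by AID, which deaminates cytosine, most often in the motif WRC (AAC, AGC, TAC or TGC) or its complement GYW (GTT, GCT, GTA or GCA). Repair by the error-prone polymerase eta spreads mutations to neighbouring A and T bases, most often at WA (AA or TA) and its complement TW (TT or TA). CDRs form the loops that contact antigen, and frameworks hold the fold of the domain. The lambda1 chain pairs with the B1-8 heavy chain to bind NP, and its variable part is joined from Iglv1 and Iglj1 in every B cell anew. Markers were checked against the label of GC B cells. At least 1 of 6 GC markers had a UMI in 93.9% to 100% of the cells used. T cell markers had a UMI in 0.511% to 1.03% of cells. Among plasma cell markers, Jchain had a UMI in 79.7% to 96.9% of cells, whereas Sdc1 and Prdm1 stood between 0.0857% and 1.39%. The smaller experiment at 7 and 10 dpi had no gene-expression matrix here.

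The reference is shown by region, because the positions of its AID motifs recur in all results below. Capitals mark the C of WRC and the G of GYW on the coding strand.
FWR1: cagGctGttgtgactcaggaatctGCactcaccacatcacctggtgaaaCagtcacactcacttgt
CDR1: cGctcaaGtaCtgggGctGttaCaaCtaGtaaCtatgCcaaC
FWR2: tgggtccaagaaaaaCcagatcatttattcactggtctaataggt
CDR2: gGtaCcaaCaaCcgaGCtcca
FWR3: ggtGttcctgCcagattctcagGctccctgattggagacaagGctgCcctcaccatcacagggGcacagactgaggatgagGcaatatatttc
CDR3: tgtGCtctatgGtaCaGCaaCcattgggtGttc
FWR4: ggtggaggaaCcaaaCtgactgtcctag

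Bases are counted from 1 at the first base of FWR1. On chromosome 16 of GRCm39, where both genes are read from the minus strand, bases 1 to 292 match the second exon of Iglv1 (18903769 to 18904060) and bases 293 to 328 match Iglj1 (18881975 to 18882010). CDR3, as the deposited annotation draws it, runs from the conserved cysteine codon to the phenylalanine codon of the J segment. Of the 163 C and G bases, 40 lie in WRC or GYW, 25 of them in the 96 CDR bases and 15 in the 232 framework bases. Of the 165 A and T bases, 62 lie in WA or TW, 26 in CDRs and 36 in frameworks. FWR2 holds 1 such C or G, and CDR1 holds 11.

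The codons at the V-J junction (97 and 98, bases 289 to 294) differed most often between cells, and they are shown with their flanks, codons 97 and 98 in capitals.
Joint of the reference: aacCATTGGgtgttc
Second most frequent joint: aacCACTGGgtgttc
Joint with leucine: aacCTTTGGgtgttc
End of Iglv1 in GRCm39: aaccatttc
Start of Iglj1 in GRCm39: ctgggtgttc

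Base 291 can be read from Iglv1, which ends in cat before the joint and gives the reference, or from the first base of Iglj1, which gives cac. The second joint matches Iglv1 joined to the whole of Iglj1 base for base. The reference joint was in 16178 of 22038 cells (73.4%) and the second joint in 4526 (20.5%), and both encode histidine and tryptophan. The joint with leucine and tryptophan was in 682 cells (3.09%) and one with arginine and tryptophan in 360 (1.63%), among 33 distinct joints. A base changed by V-J joining and one changed by hypermutation cannot be told apart at these codons. Each result is therefore given over all bases and, where it matters, with these 6 bases left out.

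Mutations were concentrated on few bases of the CDRs. Over all cells 21757 mutations were counted, 15318 of them outside the junction, and 5 of the 328 bases were changed in no cell (3 in FWR1 and 2 in CDR3). CDR3 held 9134 mutations, CDR1 3999 and CDR2 2388, whereas FWR3, the longest region, held 2533. All junction bases lie in CDR3, and its count includes 4948 differences at the junction base 291 alone. Of the 328 bases, 16 held 50% of all mutations, and outside the junction 32 did. Among the 20 bases changed most often outside the junction, 13 were a C or G in WRC or GYW, 7 were an A or T in WA or TW, and 19 lay in a CDR.

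The base changed most often was the junction base 291, where 99.6% of the 4948 changed cells read T291C, the silent difference between both main joints. At 0 h it differed in 25.1% ± 4.35 of cells (mean ± s.d., n = 9) and in untreated mice at 72 h in 24.1% ± 2.93 (n = 8). The next junction base, 290, most often A290T (H97L), differed in 6.34% ± 2.63 of cells at 0 h.

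Outside the junction, base 169 of CDR2 was changed in the most cells. It was changed in 700 cells (most often G169A, A57T), in 1.98% ± 0.804 of the cells of a mouse at 0 h and in 3.51% ± 0.702 in untreated mice at 72 h. Its neighbour base 170 (C170T, A57V) was changed in 406 cells, with 1.17% ± 0.743 at 0 h and 3.17% ± 1.49 in untreated mice at 72 h. Both bases form the GCT codon 57, in which each strand offers an AID motif. Base 82 (G82A, A28T) was changed in 440 cells and stood at 1.35% ± 0.664 at 0 h.

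Serine codon 32 of CDR1 was changed at all 3 bases. Base 94 (A94C, S32R) was changed in 249 cells, base 95 (G95C, S32T) in 350 and base 96 (T96A, S32R) in 284. Base 96 stood at 0.339% ± 0.355 of cells at 0 h, at 1.61% ± 0.966 in untreated mice at 48 h and at 3.52% ± 1.71 at 72 h, where it was the most changed base outside the junction. Base 94 stood at 0.293%, 1.27% and 2.17% in the same groups. In neither base was the difference between 0 h and 48 h past the adjusted threshold (exact adjusted p = 0.07 for both, exact permutation test within experiment, Benjamini-Hochberg over 42 bases).

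In CDR3 outside the junction, base 276 (most often A276T, silent) was changed in 362 cells, base 281 (A281T, Y94F) in 313, base 284 (G284A, S95N) in 406 and base 272 (C272T, A91V) in 295. At 0 h these 4 bases were changed in 1.498%, 1.49%, 1.10% and 1.22% of cells. The remaining named bases (87, 108, 162, 271, 289 and 293) were each changed in 0.139% to 0.808% of cells at 0 h.

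**Figure D1:**
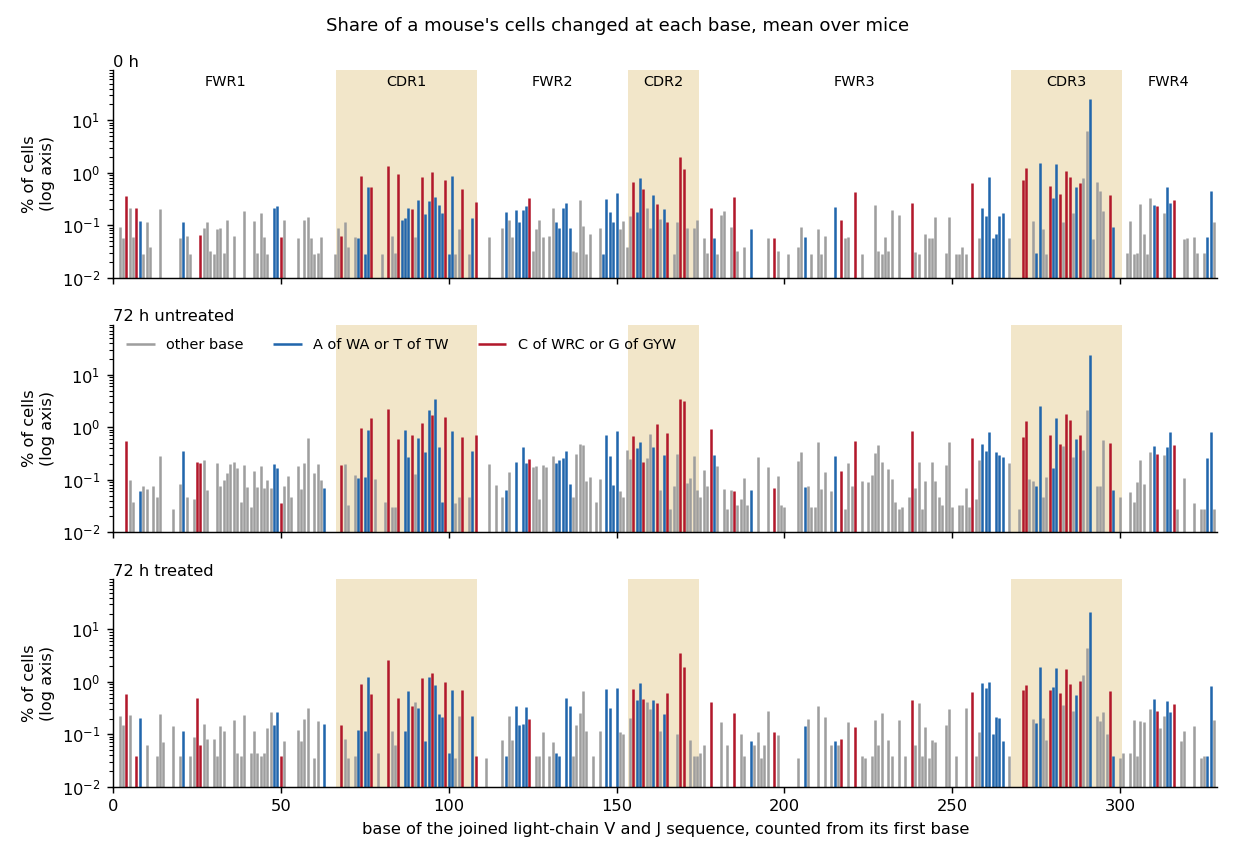
Share of the cells of a mouse changed at each of the 328 bases (mean over mice, log axis, values under 0.01% not drawn) at 0 h (n = 9) and at 72 h in untreated (n = 8) and treated (n = 7) mice, with CDRs shaded and bases coloured by motif. The tallest lines are the junction bases 290 and 291 in CDR3, and outside the junction the tallest lines are mostly motif bases of the CDRs.

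CDRs were mutated more than frameworks in every group and in every mouse. At 0 h the 3 CDRs together held 6.53 ± 1.59 and the 4 frameworks 0.838 ± 0.180 mutations per 1000 bases (n = 9), and in untreated mice at 72 h 8.12 ± 0.449 and 1.44 ± 0.215 (n = 8). With the junction left out the CDRs held 3.26 ± 1.03 at 0 h and 5.68 ± 0.385 in untreated mice at 72 h. The difference within a mouse passed the test in the 5 groups of the time course and in CDK2hi and CDK2low cells (exact two-sided sign-flip test, exact adjusted p = 0.0195 to 0.0446), with and without the junction. In the groups of 4 mice the smallest p that sign flips allow is 0.125, which all 3 groups reached. Counting each distinct sequence of a mouse once, which reduces all its unmutated cells to a single sequence, raised the difference at 0 h from 5.69 to 11.5.

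By region, in untreated mice at 72 h and outside the junction, CDR2 stood at 6.38 ± 0.748, CDR1 at 5.61 ± 0.741 and CDR3 at 5.25 ± 0.978 mutations per 1000 bases. FWR4 stood at 1.75 ± 0.626, FWR2 at 1.74 ± 0.596, FWR3 at 1.47 ± 0.298 and FWR1 at 1.04 ± 0.218. With the junction CDR3 stood at 12.4 ± 1.26. The ranges of CDR1 (4.48 to 6.81) and CDR2 (5.42 to 7.52) overlapped, and the means of FWR4 and FWR2 differed by less than the s.d. of either.

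The excess in CDRs, per 1000 bases, was largest at motif bases. In untreated mice at 72 h, the C of WRC and G of GYW were mutated at 11.6 ± 0.887 per 1000 such bases in CDRs and at 3.53 ± 1.36 in frameworks, higher in CDRs in 8 of 8 mice (exact sign-flip test, exact adjusted p = 0.026). The A of WA and T of TW stood at 6.905 ± 1.01 and 3.002 ± 0.771, again in 8 of 8 mice (exact adjusted p = 0.026). Both classes passed the test in all 5 groups of the time course and in CDK2hi and CDK2low cells. At the other C and G bases the values were 1.07 ± 0.451 and 0.828 ± 0.233, and at the other A and T bases 1.32 ± 0.463 and 1.11 ± 0.271. At these bases no group passed (exact adjusted p = 0.547 to 0.875 for C and G and 0.972 to 1 for A and T). This comparison was added after the values were known.

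**Figure D2:**
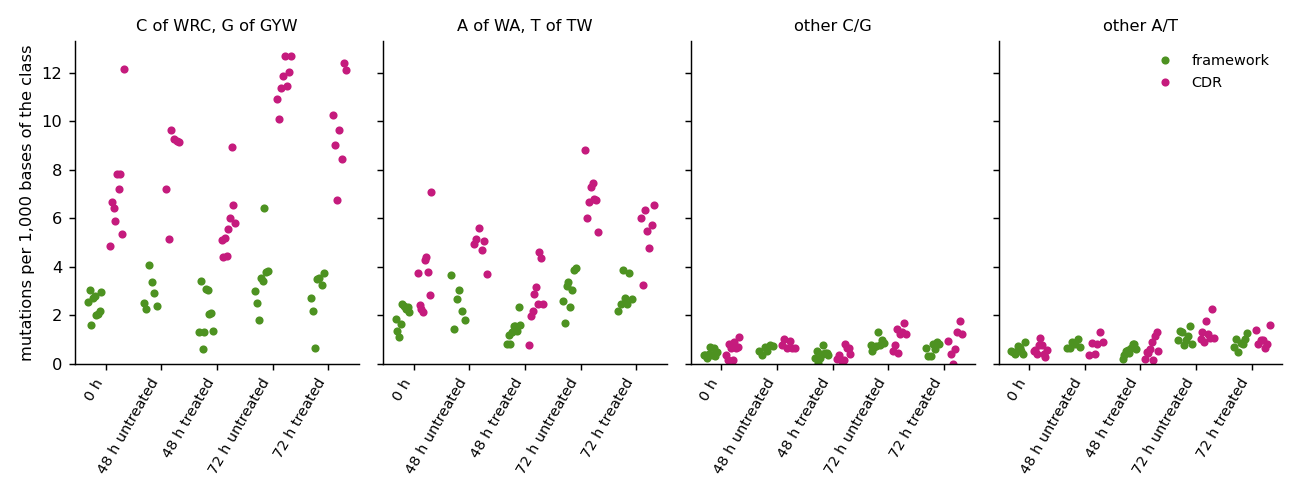
Mutations per 1000 bases of each class in frameworks and CDRs, 1 point per mouse, in the 5 groups of the time course with the junction left out. CDR points lie above framework points for the C of WRC or G of GYW and for the A of WA or T of TW, and the points mix for the other bases.

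Replacement and silent changes were compared per 1000 sites of their kind, outside the junction. Sites were counted with all possible changes of a base weighted alike, without regard to motif or to transitions. Changes to a stop codon counted as replacement sites, although only productive chains were read. Equal values are thus not the expectation without selection, and selection was not tested. In CDRs replacement sites were mutated more than silent sites at 0 h (3.45 ± 1.13 against 2.64 ± 0.881, 8 of 9 mice), in treated mice at 48 h (2.81 ± 0.895 against 1.92 ± 0.616, 7 of 9), in CDK2hi cells (5.77 ± 0.753 against 3.49 ± 0.903, 7 of 7) and in CDK2low cells (7.42 ± 1.25 against 4.85 ± 0.942, 7 of 7), all with an exact adjusted p of 0.0391 in the exact sign-flip test. Over the CDRs together the other groups did not pass. In untreated mice the values were 4.19 ± 0.592 and 3.33 ± 0.251 at 48 h (5 of 6 mice, exact adjusted p = 0.104) and 5.90 ± 0.288 and 5.01 ± 1.21 at 72 h (5 of 8 mice, exact adjusted p = 0.123), and in treated mice at 72 h 4.89 ± 0.947 and 3.93 ± 1.06 (6 of 7 mice, exact adjusted p = 0.0938). Replacement sites also had the higher mean in the 3 groups of 4 mice (exact adjusted p = 0.156 to 0.375). In frameworks replacement sites stood below silent sites in the mean of every group (1.30 ± 0.209 against 1.84 ± 0.420 in untreated mice at 72 h), but no group passed (exact adjusted p = 0.104 or higher). These comparisons were also added after the values were known.

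The first question of the time course was whether anti-DEC-OVA changed the mutation frequency in all regions or in some. At 48 h the whole chain stood lower in treated mice. In untreated mice the lowest, median and highest values were 2.35, 2.86 and 3.03 mutations per 1000 bases (mean 2.76 ± 0.252, n = 6), and in treated mice 1.53, 2.03 and 2.81 (2.09 ± 0.402, n = 9). The groups overlapped, since 2 treated mice, both of the larger experiment, lay above the lowest untreated mouse. The difference was 0.67 per 1000 bases (exact permutation test within experiment on values relative to the 0 h mice, p = 0.000952 of 2100 permutations). Outside the junction the values were 1.44, 1.95 and 2.18 in untreated and 0.751, 1.2003 and 1.74 in treated mice.

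By region, 5 of 7 fell with treatment at 48 h. CDR1 fell from 3.77 ± 0.657 to 2.25 ± 0.738 (exact adjusted p = 0.01, exact permutation test, Benjamini-Hochberg over the 7 regions), and CDR2 from 4.52 ± 1.25 to 2.99 ± 1.35 (exact adjusted p = 0.034). FWR1 fell from 0.881 ± 0.164 to 0.535 ± 0.285 (exact adjusted p = 0.034), FWR2 from 1.16 ± 0.284 to 0.675 ± 0.179 (0.00333) and FWR3 from 1.13 ± 0.394 to 0.699 ± 0.304 (0.0133). FWR4 stood at 1.37 ± 0.534 and 1.11 ± 0.531 and did not pass (exact adjusted p = 0.397). CDR3 stood at 12.04 ± 0.804 and 11.1 ± 1.80 over all its bases (exact adjusted p = 0.274) and, without the junction codons, fell from 3.89 ± 0.596 to 2.83 ± 0.863 (exact adjusted p = 0.0125).

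In mutations per 1000 bases CDRs fell by more than frameworks, from a higher level. CDRs stood at 6.78 ± 0.375 in untreated and 5.45 ± 1.02 in treated mice (3.98 ± 0.469 and 2.597 ± 0.771 outside the junction), and frameworks at 1.10 ± 0.206 and 0.698 ± 0.224. In proportion to the untreated mean the fall was larger in frameworks over all bases and about equal outside the junction, and this proportion was not tested. The difference between CDR and framework frequency was 5.68 ± 0.195 in untreated and 4.75 ± 0.928 in treated mice, lower by 0.94 (exact p = 0.0267, exact permutation test). Outside the junction it was 2.89 ± 0.321 and 1.90 ± 0.661, lower by 0.99 (exact p = 0.00476). In the larger experiment alone the difference over all bases was 0.57 (exact p = 0.262), and CDR1, CDR2 and FWR3 no longer passed (lower by 1.49, 1.67 and 0.43, exact adjusted p = 0.0556, 0.107 and 0.0583). With the highest hashtag alone FWR1 did not pass (exact adjusted p = 0.0587). The median light-chain UMIs per cell ranged from 107 to 155 among untreated and from 155 to 266 among treated mice, and requiring at least 5 UMIs per contig ended none of these calls.

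Identical sequences were more common in treated mice at 48 h, where 22.4% of cells added a distinct sequence of their mouse, against 35.0% in untreated mice. Treated mice also gave more cells (439 ± 69.9 against 352 ± 55.6 per mouse), and the share was neither matched for cell number nor tested. With each distinct sequence counted once, the whole-chain difference was 0.45 (exact p = 0.0305), that between CDR and framework was 0.48 (exact p = 0.476), and none of the 5 regions passed (exact adjusted p = 0.36 to 0.796). This count also reduced the unmutated cells of each mouse to a single sequence. They made a mean of 47.7% of cells in untreated and 56.1% in treated mice.

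**Figure D3:**
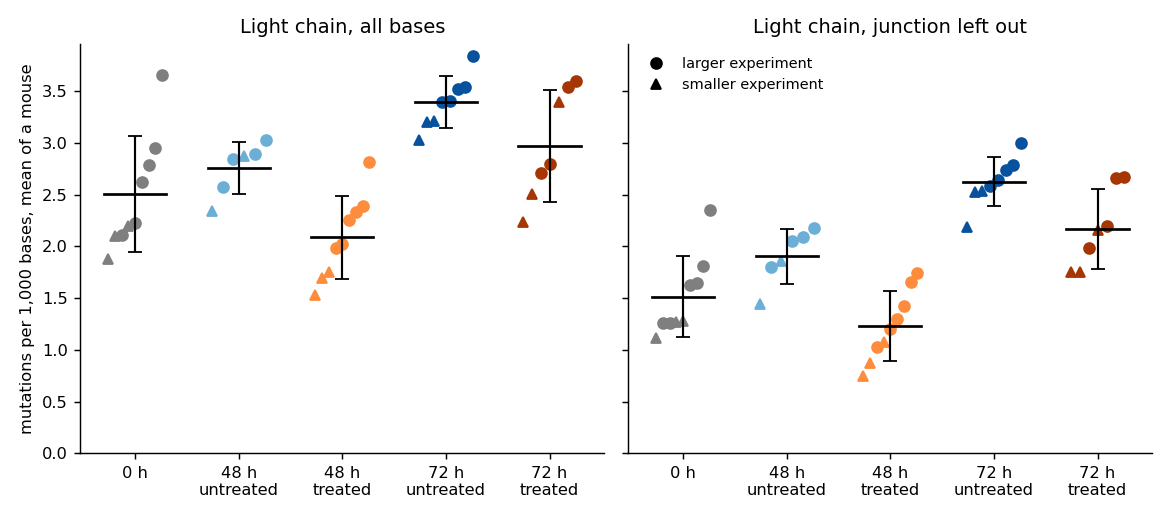
Mutations per 1000 light-chain bases in each mouse of the time course, over all bases and with the junction bases left out (line, mean; bar, s.d.; circles, larger experiment; triangles, smaller experiment). Treated mice at 48 h reach from 1.53 to 2.81 over all bases and untreated mice from 2.35 to 3.03.

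At 72 h, CDR1 was the region that passed between treated and untreated mice. It stood between 4.48 and 6.81 (median 5.48) in untreated and between 2.59 and 5.13 (median 4.34) in treated mice, and fell from 5.61 ± 0.741 to 3.99 ± 0.879 (exact adjusted p = 0.0194). The groups overlapped in this region, since 3 treated mice lay above the lowest untreated mouse. The other 6 regions did not pass (exact adjusted p = 0.192 or higher). With each distinct sequence counted once CDR1 passed as well, with a difference of 3.09 (exact adjusted p = 0.0222), and in the larger experiment alone it differed by 1.44 (exact p = 0.00794, the smallest that 126 permutations allow, and 0.0556 after adjustment). CDR2 stood at 6.38 ± 0.748 and 5.29 ± 1.48, and CDR3 outside the junction at 5.25 ± 0.978 and 5.22 ± 1.01.

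The whole chain at 72 h stood at 3.03, 3.40 and 3.84 (lowest, median and highest) in untreated and at 2.23, 2.79 and 3.60 in treated mice. On values relative to the 0 h mice the difference was 0.39 and did not pass (exact p = 0.0603). Counted over distinct sequences it was 0.64 and passed (exact p = 0.0131). Outside the junction, over all cells, it was 0.43 and passed (exact p = 0.00556), with 2.62 ± 0.237 in untreated and 2.17 ± 0.383 in treated mice. The difference between CDR and framework frequency behaved alike, with 0.57 over all bases (exact p = 0.252) and 0.75 outside the junction (exact p = 0.0175). The treatment effect at 48 h minus that at 72 h was -0.28 per 1000 bases for the whole chain (exact p = 0.252, exact permutation test of the difference) and passed in none of the 7 regions (exact adjusted p = 0.701 or higher), so the regions were not shown to respond differently at both times.

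**Figure D4:**
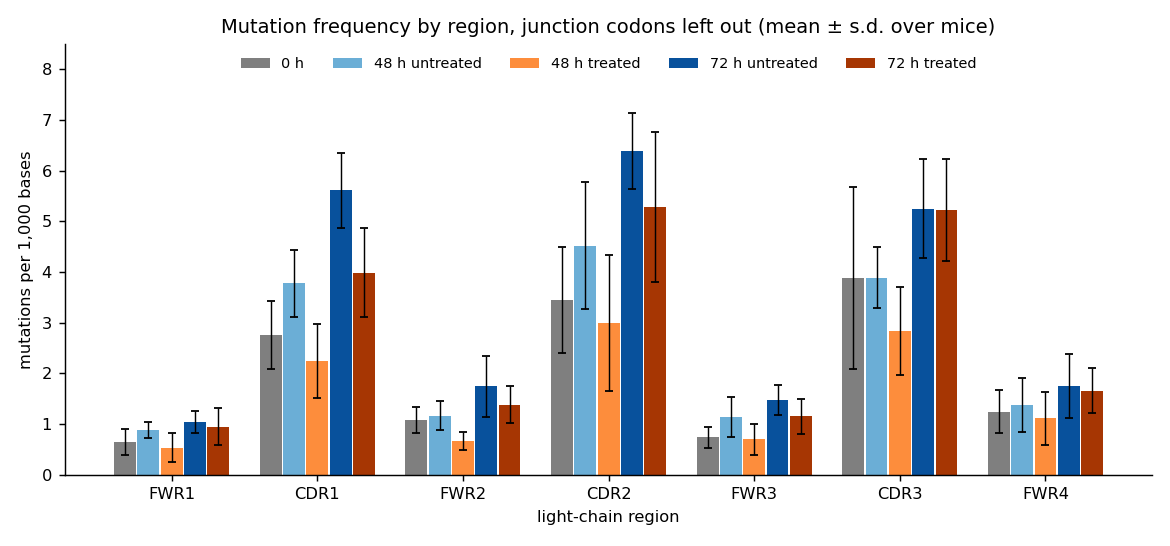
Mutations per 1000 bases in each light-chain region with the junction codons left out (bars, mean over mice; lines, s.d.; n = 9, 6, 9, 8 and 7 mice in the order of the legend). In CDR1 and CDR2 untreated mice at 72 h are highest, and in CDR3 both groups at 72 h stand alike.

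Between 48 h and 72 h the light chain was more mutated at the later time in treated and untreated mice. In treated mice the whole chain rose by 0.94 per 1000 bases relative to the 0 h mice of each experiment (exact p = 0.000714), and 6 of 7 regions rose. CDR2 rose by 2.36 (exact adjusted p = 0.00708), CDR1 by 1.82 (0.00333), FWR2 by 0.73 (0.00167), FWR4 by 0.59 (0.0147), FWR3 by 0.48 (0.0025) and FWR1 by 0.43 (0.0386). CDR3 did not pass over all its bases (exact adjusted p = 0.142) and rose by 2.50 without the junction (exact adjusted p = 0.000833), from 2.83 ± 0.863 to 5.22 ± 1.01. With each distinct sequence counted once, the rise of the whole chain was 0.38 (exact p = 0.0867) and no region passed (exact adjusted p = 0.595 or higher).

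In untreated mice, which were not the same animals at both times, the whole chain rose by 0.66 over the same interval (exact p = 0.000794), with CDR1 by 1.87 and CDR2 by 1.89 (exact adjusted p = 0.00833 for both). The other 5 regions did not pass over all bases. Without the junction, CDR3 rose by 1.404 (exact adjusted p = 0.00926) and FWR2 by 0.59 (0.0417). CDRs, from a higher level, rose more per 1000 bases than frameworks in untreated mice, by 1.06 over all bases (exact p = 0.00159) and by 1.39 outside the junction (exact p = 0.000794), and in treated mice by 1.43 (exact p = 0.0229) and 1.63 (exact p = 0.000952). In proportion to the means at 48 h the rise over all bases was larger in frameworks than in CDRs in both untreated (1.10 to 1.44 against 6.78 to 8.12) and treated mice (0.698 to 1.2006 against 5.45 to 7.24), and outside the junction it was larger in CDRs (3.98 to 5.68 and 2.597 to 4.66), none of which was tested. With each distinct sequence counted once, the rise in untreated mice was 0.57 (exact p = 0.0159) for the whole chain, but neither CDR1 (2.22, exact adjusted p = 0.128) nor CDR2 (1.98, exact adjusted p = 0.537) passed, and the rise of CDRs over frameworks was 1.08 (exact p = 0.0563). In the larger experiment alone the rise of CDRs over frameworks in treated mice was 1.04 (exact p = 0.119), and neither CDR2 and FWR4 in treated mice (exact adjusted p = 0.06 and 0.0722) nor CDR1 and CDR2 in untreated mice passed (0.0556 and 0.111), CDR1 again at the smallest unadjusted p that 126 permutations allow. With the highest hashtag alone the rise of FWR1 in treated mice did not pass (exact adjusted p = 0.0514).

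From 0 h to 48 h, the whole chain of untreated mice stood 0.26 higher (exact p = 0.257), and outside the junction 0.39 higher (exact p = 0.0281), from 1.51 ± 0.391 to 1.90 ± 0.267. No region passed, CDR1 (2.76 ± 0.679 and 3.77 ± 0.657) and FWR3 (0.738 ± 0.212 and 1.13 ± 0.394) being nearest with an exact adjusted p of 0.0567 each. In treated mice the whole chain was lower at 48 h than at 0 h, from 2.50 ± 0.559 to 2.09 ± 0.402 (exact p = 0.024), and outside the junction from 1.51 ± 0.391 to 1.23 ± 0.338 (exact p = 0.0491). Among regions FWR2 fell, from 1.08 ± 0.263 to 0.675 ± 0.179 (exact adjusted p = 0.00833), although not with the highest hashtag alone (0.0545) or in the larger experiment alone (0.0758), and CDR1 stood at 2.76 ± 0.679 and 2.25 ± 0.738 (exact adjusted p = 0.258). In neither experiment alone did the whole chain pass in the treated mice (exact p = 0.132 in the larger and 0.1, the smallest possible, in the smaller), and with each distinct sequence counted once it did not pass either (exact p = 0.113).

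Mutations at C and G and at A and T were each compared per 1000 such bases, and kinds of change as shares of all mutations. Treatment at 48 h lowered mutations at C and G from 2.02 ± 0.405 to 1.38 ± 0.327 per 1000 such bases (exact adjusted p = 0.0114, exact permutation test, Benjamini-Hochberg over 6 measures) and at A and T from 3.49 ± 0.341 to 2.79 ± 0.540 (exact adjusted p = 0.03). At A and T the fall was 0.29 in the larger experiment alone (exact adjusted p = 0.223) and 1.52 in the smaller (0.6), and at C and G 0.78 (0.0286) and 0.38 (0.6). Over distinct sequences neither passed (0.71 at A and T and 0.19 at C and G, exact adjusted p = 0.751 and 0.858). Outside the junction A and T stood at 1.78 ± 0.238 and 1.09 ± 0.398 (exact adjusted p = 0.00714). The A/T share of mutations outside the junction was 44.5% ± 4.76 at 0 h, 47.3% ± 4.99 and 43.7% ± 8.16 in untreated and treated mice at 48 h, and 47.0% ± 3.43 and 47.9% ± 6.78 at 72 h. Transitions made 58.9% ± 4.64, 54.2% ± 3.97, 51.7% ± 5.91, 53.5% ± 5.62 and 55.5% ± 3.997 of mutations in the same order, and replacements 77.1% ± 2.89, 74.8% ± 1.95, 76.5% ± 2.97, 73.9% ± 3.40 and 75.5% ± 3.97. None of these shares, nor the ratio of motif to other C and G bases, passed outside the junction in any of the 6 comparisons. The transition share of treated mice at 48 h, 7.14 points below that at 0 h, came nearest (exact adjusted p = 0.0643).

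With the junction included, some shares passed. From 48 h to 72 h in treated mice the A/T share fell by 6.36 percentage points (exact adjusted p = 0.0168), the transition share fell by 5.16 (exact adjusted p = 0.0189) and the replacement share rose by 9.59 (exact adjusted p = 0.0129). In untreated mice the A/T share fell by 4.41 points (exact adjusted p = 0.0397), which did not pass without the cells that held a further contig (4.26 points lower, exact adjusted p = 0.054). Without the junction the values for treated mice turned to 4.52, 3.69 and -0.63 points and none passed (exact adjusted p = 0.226 to 0.545). T291C, a silent transition at a T, enters each of these shares.

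At single bases, 2 of 40 bases tested differed between treated and untreated mice at 48 h, 5% of those changed in at least 20 cells of the mice compared. At base 284 of CDR3 (G284A, S95N) untreated mice stood at 0.678% to 3.30% of cells (median 1.67%) and treated mice at 0% to 1.64% (median 1.04%), lower in treated mice by 0.84 points (exact adjusted p = 0.0476). At base 271 of CDR3 (G271A, A91T) untreated mice stood at 0% to 0.517% and treated mice at 0.233% to 1.34%, higher in treated mice by 0.52 points (exact adjusted p = 0.0476). The ranges overlapped at both bases, and base 271 did not pass with the highest hashtag alone (exact adjusted p = 0.0663). Of the 40 bases 6 stood higher in treated mice, and 13 had an unadjusted p under 0.05.

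At 72 h, 3 of 57 bases (5.26%) differed, all lower in treated mice, with an exact adjusted p of 0.0302 each. The most frequent change at each was silent, and it made 84.8% of the changes at base 108, 47.9% at base 87 and 45.5% at base 162. At base 108 (C108T, the last base of CDR1) untreated mice stood at 0.26% to 1.13% of cells and treated mice at 0% to 0.268%, with 6 of 7 treated mice at 0. At base 87 of CDR1 (T87C) they stood at 0.294% to 1.30% and 0% to 0.496%, and at base 162 of CDR2 (C162T) at 0.376% to 1.72% and 0% to 1.07%. Treated mice gave 101 to 403 cells, and 0 changed cells allow a share of up to 2.97% and 0.744% at these numbers, by counting error alone. Base 96 stood at 3.52% ± 1.71 in untreated and 0.874% ± 0.928 in treated mice, without passing (exact adjusted p = 0.0509).

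In the other 4 comparisons of the time course no base passed (0% of 42 to 55 bases in each), with 4 to 11 bases at an unadjusted p under 0.05. From 48 h to 72 h, 39 of 44 bases stood higher in treated and 44 of 55 in untreated mice. From 0 h to 48 h, 24 of 42 stood higher in untreated and 7 of 42 in treated mice. With bases changed in at least 5 cells tested, or with each distinct sequence counted once, no base passed in any comparison. Base 108 was not among the bases tested with distinct sequences.

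The joints were compared in the same way. The reference joint was in 70.0% ± 5.79 of cells at 0 h, 73.1% ± 3.07 and 74.0% ± 4.33 in untreated and treated mice at 48 h, and 74.6% ± 2.52 and 75.7% ± 5.70 at 72 h. The second joint was in 22.6% ± 4.04, 21.6% ± 2.96, 21.1% ± 4.33, 23.0% ± 2.87 and 19.2% ± 4.11. Neither passed in any comparison. The joint with leucine was in 3.63% ± 2.41 of cells at 0 h, and in untreated mice it fell from 2.25% ± 0.490 at 48 h to 0.883% ± 0.398 at 72 h (exact adjusted p = 0.00238, exact permutation test). Cells with the second joint did not pass as more or less mutated outside the junction than cells with the reference joint of the same mouse (2.75 against 2.58 mutations per 1000 bases in untreated mice at 72 h, exact adjusted p = 0.301 to 0.758 over 7 groups). Their mean was higher in all 7 groups, by 0.0970 to 0.337. They were higher in 7 of 9 treated mice at 48 h and in 2 of 8 untreated mice at 72 h. These tests were added after the values were known.

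In the separate set of mice at 7 and 10 dpi, cells were few (62 to 336 per mouse at 7 dpi, 17 to 160 at 10 dpi untreated and 16 to 63 at 10 dpi treated), and in the smaller of its experiments 471 of 3916 cells with the pairing were assigned to a mouse. The whole chain stood at 2.50, 2.79, 2.91 and 3.39 mutations per 1000 bases in the 4 mice at 7 dpi and at 3.41, 3.97, 4.199 and 4.69 in the untreated mice at 10 dpi. All 4 values at 10 dpi lay above all at 7 dpi, although the nearest differed by less than the s.d. of either group (exact p = 0.0286, the smallest that 70 permutations allow). The treated mice stood at 1.33, 3.19, 5.18 and 5.66, with the lowest value from 16 cells, and overlapped with both (exact p = 0.343 against 7 dpi and 0.857 against untreated mice). With the labels permuted within experiment the difference between 10 and 7 dpi had an exact p = 0.05, the smallest that these permutations allow, so it could not pass. With each distinct sequence counted once the difference was 0.43 (exact p = 0.4). Leaving out any mouse but M6 or M11, both untreated at 10 dpi, ended the call (exact p = 0.0571, differences of 0.957 to 1.33).

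No region passed in these mice, since the smallest p of 0.0286 gives an adjusted p of 0.2 over 7 regions when it is reached once. In untreated mice, from 7 to 10 dpi, CDR2 stood at 3.73 ± 1.15 and 7.48 ± 3.43, CDR1 at 3.47 ± 0.558 and 5.90 ± 2.06, FWR3 at 1.15 ± 0.366 and 2.25 ± 0.273 and FWR1 at 1.06 ± 0.400 and 1.18 ± 0.225. In treated mice CDR2 stood at 7.74 ± 2.52 and FWR1 at 0.664 ± 0.499. CDR1 was at 0 in 1 treated mouse and between 4.91 and 7.62 in the other 3.

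CDK2low cells held more light-chain mutations than CDK2hi cells of the same mouse, and in most regions. The whole chain stood at 2.73, 3.29 and 3.96 (lowest, median and highest of 7 mice) in CDK2hi and at 3.39, 4.28 and 4.98 in CDK2low cells. The difference was 0.76 ± 0.351, between 0.324 and 1.13, and positive in 7 of 7 mice (exact sign-flip test, p = 0.0156, the smallest that 7 mice allow). Outside the junction it was 0.75 ± 0.357, also in 7 of 7 mice.

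By region, FWR1 rose from 0.721 ± 0.120 in CDK2hi to 1.36 ± 0.162 in CDK2low cells, CDR1 from 5.15 ± 1.01 to 6.71 ± 1.005, FWR3 from 1.503 ± 0.284 to 1.80 ± 0.408 and CDR3 from 13.0 ± 3.35 to 14.2 ± 3.53, each in 7 of 7 mice (exact adjusted p = 0.0273, exact sign-flip test). Outside the junction CDR3 stood at 4.89 ± 0.791 and 6.13 ± 1.10, higher in 6 of 7 mice (exact adjusted p = 0.0437). CDR2 rose from 5.80 ± 1.61 to 7.84 ± 1.46, in 6 of 7 mice (exact adjusted p = 0.0437). FWR2 stood at 1.93 ± 0.421 and 2.29 ± 0.582 (exact adjusted p = 0.182) and FWR4 at 1.59 ± 0.424 and 2.06 ± 0.912 (0.297). In FWR1 the lowest CDK2low mouse, at 1.04, stood above the highest CDK2hi mouse, at 0.911, and in the other regions the 2 populations overlapped.

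CDRs stood at 7.99 ± 1.398 in CDK2hi and 9.55 ± 1.70 in CDK2low cells (5.22 ± 0.633 and 6.801 ± 1.04 outside the junction), and frameworks at 1.37 ± 0.149 and 1.802 ± 0.291. In proportion to CDK2hi cells the difference was larger in frameworks over all bases and about equal outside the junction, which was not tested. Per 1000 bases CDRs differed by more than frameworks, by 1.13 ± 0.631 (exact p = 0.0156, 7 of 7 mice). Mutations at A and T differed by 0.77 ± 0.254 per 1000 such bases in 7 of 7 mice and at C and G by 0.75 ± 0.567 in 5 of 7, and neither they nor any share passed over the 6 measures (exact adjusted p = 0.0938 and 0.125). The comparisons of kinds of change here were added after the values were known.

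Markers of naive or memory B cells also differed between both populations. Cd38 had a UMI in 5.81% of CDK2hi and 12.9% of CDK2low cells, and Ccr6, a chemokine receptor, in 1.52% and 5.90%, at median depths of 11642 and 14099 UMIs per cell. Their part in the difference in mutations was not tested. CDK2low cells were read with fewer light-chain UMIs (medians of 65.5 to 123.5 per mouse) than CDK2hi cells (151.5 to 218), and requiring at least 5 UMIs per contig ended the call for CDR2 (difference 1.83, exact adjusted p = 0.0656) and no other of these calls. With each mouse left out in turn, the whole chain and the CDR and framework difference passed each time, at an exact p of 0.0312, the smallest that 6 mice allow. At that limit FWR1, CDR1, FWR3 and CDR3 passed only without M4 or M6 (exact adjusted p = 0.0437, otherwise 0.0547) and CDR2 only without M6 (0.0437, otherwise up to 0.0875). All 5 kept their direction. CDR3 differed least without M10, by 0.777, and FWR4 passed without M4 (0.816, exact adjusted p = 0.0437). The share of cells that added a distinct sequence was 34.2% in CDK2hi and 49.1% in CDK2low cells. CDK2hi pools also gave more cells per mouse (667 ± 326 against 390 ± 217) and more unmutated cells (means of 40.7% and 33.1%). The share was neither matched for cell number nor tested. With each distinct sequence counted once the whole-chain difference was 0.19 (exact p = 0.328) and no region passed (exact adjusted p = 0.109 or higher), FWR1 differing by 0.90 and FWR3 turning to -0.44.

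**Figure D5:**
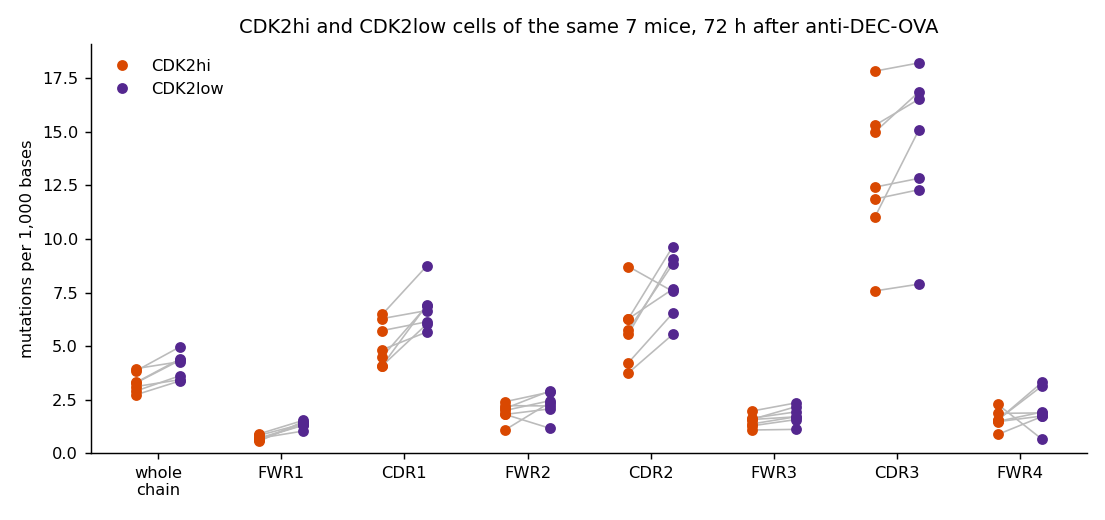
Mutations per 1000 bases in CDK2hi and CDK2low cells of the same 7 mice (lines join a mouse) for the whole light chain and each region, over all bases. The whole chain is higher in CDK2low cells in 7 of 7 mice, and in FWR2, CDR2 and FWR4 some lines fall.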

How the data were processed

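V(D)J contigs of 6 single-cell pools, with hashtag and, for 5 pools, gene-expression matrices, were used as the authors deposited them. Per the labels, the submitters' processing notes name Cell Ranger 6.0.1, Seurat 5.1.0 and mm39, whereas the study's methods name a later release of Cell Ranger, and which release made each file was not resolved. The deposited matrices hold raw UMI counts for genes and hashtags in each cell, and the contig tables hold the annotated region sequences of each contig with its UMI counts. Light-chain bases were compared with the reference here, in Python 3.11.15 with numpy 2.4.6 and pandas 2.3.3.

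Cells were assigned to mice with HTODemux (Seurat 5.3.0, R 4.3.3, quantile 0.99) on hashtags with at least 10000 UMIs in a pool. Cells that carried hashtags from different mice were discarded, which removes doublets between mice but not those within a mouse. Mice M8 and M9 of the CDK2 experiment received no cells, and mice needed at least 10 cells. Pools shared 0 to 94 cell barcodes.

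A mouse was the replicate. Groups of the time course were compared within experiment by exact two-sided permutation tests, on values relative to the 0 h mice where both times were compared, and CDK2 populations and CDR against framework by exact sign flips within mice. The Benjamini-Hochberg adjustment covered 7 regions, the kinds of change, the groups, or all bases changed in at least 20 cells of the mice compared, with a threshold of 0.05. Hashtags identify mice, but whether cells of a mouse descend from few clones was not resolved. The comparisons of the whole chain, regions, CDR and framework difference, kinds of change and single bases were repeated with distinct sequences counted once. Unrelated cells can share a light-chain sequence, and all unmutated cells of a mouse then count as a single sequence. This count therefore also removes differences in the share of unmutated cells, and it cannot show whether cells were clonally related. Intervals for 0 cells use 3 counts and cover counting error only.

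Named bases were the 10 most changed at 0 h and in untreated mice at 72 h, those past the threshold, and the junction bases, with bases 94 to 96 described together. The members and lists were chosen with earlier results of these data known. Alternatives were the highest hashtag alone, at least 5 UMIs per contig, no further contig, the junction left out, at least 30 cells per mouse, distinct sequences, each experiment alone, raw means, each mouse left out, no pairing by mouse, and bases changed in at least 5 cells. Scripts were tested on simulated data. The B cell marker list and the share for the whole naive or memory list are not reported here.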

Additional observations from a re-analysis of the deposited data

Results flagged for a closer look

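Of 149 combinations of group and measure, 16 held a mouse far from the others of its group, under a rule with a nominal level of 5%. Many of these measures come from the same mutations and mice, so the count cannot be set against that level. At 0 h, M06 of the larger experiment was highest in CDR2, at 5.79 mutations per 1000 bases (next 3.97), and at C and G, at 2.91 (next 2.08), and A3 of the smaller experiment was lowest in FWR3, at 0.258 (next 0.645). In untreated mice at 48 h, B1 was highest in CDR3, at 13.6 (next 12.2), but without the junction it stood at 3.88, within the other mice (3.01 to 4.69). In treated mice at 48 h, M15 was highest in CDR2, at 6.23 (next 3.42), and in the difference between CDRs and frameworks, at 6.86 (next 5.05). In the same group, C3, with 570 cells, had the highest ratio of motif to other C and G bases, at 60.7 (next 13.8). Its ratio rests on 0.0571 mutations per 1000 other C and G bases, the lowest of the group and near the floor.

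In untreated mice at 72 h, M21 was highest at A and T, at 4.67 (next 4.14), and lowest in the replacement share, at 52.5% (next 57.5%). In treated mice at 72 h, E2, with 124 cells, was highest in the motif ratio, at 19.7 (next 11.1), and without the junction another mouse came near it. At 10 dpi, the untreated mouse M6, with 17 cells, was highest in the transition share, at 73.7% (next 59.3%), and in the motif ratio, at 27.7 (next 11.9), and the treated mouse M10, with 16 cells, was lowest in the replacement share, at 42.9% of 7 mutations (next 60.2%). Without the junction, with 3 mutations left, M10 was highest instead, at 100% (next 80.6%). M5 had the lowest motif ratio among CDK2hi samples, at 5.42 (next 10.5), and without the junction it stood at 9.59 (next 10.2). Among CDK2low samples M7 was highest in CDR1, at 8.73 (next 6.91), and M6 in the transition share, at 72.6% (next 62.8%), which without the junction was 62.9% (next 61.1%).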

How the results depend on the processing

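Differences are in mutations per 1000 bases, written as in the report (treated minus untreated, later minus earlier, CDK2low minus CDK2hi), and the excess is CDR minus framework frequency. The causes of the changes were not tested.

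With each distinct sequence counted once, treatment at 48 h gave 0.31 in CDR3 and -0.48 in the excess, and treatment at 72 h gave -0.64 for the whole chain, which then passed. From 48 h to 72 h, treated mice gave 0.38 for the whole chain, -0.37 in FWR4, 0.55 in the excess and 0.34 points in the A/T share, and untreated mice gave -0.21 in CDR3 and 1.08 in the excess. Treated mice at 48 h against 0 h gave -0.35. The effect at 48 h minus that at 72 h turned to 0.19 for the whole chain and 0.53 for the excess. Untreated mice at 10 against 7 dpi gave 0.43, and treated against untreated mice at 10 dpi 0.81. CDK2low minus CDK2hi gave 0.19 for the whole chain, -0.30 in FWR2, -0.44 in FWR3, -0.22 in CDR3, -0.032 in FWR4 and 0.58 in the excess. No base passed at 48 h or 72 h (0 and 0), nor with bases changed in at least 5 cells (0 and 0), and 1 base passed at 48 h with the highest hashtag.

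With the junction left out, treatment at 72 h gave -0.43 for the whole chain and -0.75 in the excess, and untreated mice at 48 h against 0 h gave 0.39 and 0.47. Treated mice from 48 h to 72 h gave 4.52 points in the A/T share, 3.69 in the transition share and -0.63 in the replacement share. In the larger experiment alone, treatment at 48 h gave 0.24 in CDR3 and -0.57 in the excess, treated mice from 48 h to 72 h gave 1.04 in the excess, and treated mice at 48 h against 0 h gave -0.42 for the whole chain. With the junction also left out, the last was -0.27, and the excess of untreated mice at 48 h against 0 h was 0.44.

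The smaller experiment alone cannot reach a p below 0.1. It gave -0.95 and -1.67 (whole chain and excess) for treatment at 48 h, 1.05 and 1.88 for treated and 0.53 and 0.82 for untreated mice from 48 h to 72 h (CDR3 -1.36), 0.93 in the excess of untreated mice at 48 h against 0 h and -0.40 for treated mice. With the junction also left out these were -0.75 and -1.04, 0.99 and 1.74, 0.76 and 1.69, 0.53 and -0.32.

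With labels permuted within experiment, 10 against 7 dpi gave 1.16 without passing, and with no pairing by mouse the excess of CDK2low cells was 1.13 without passing, and CDR2, FWR3 and CDR3 lost their calls (exact permutation test, adjusted p = 0.0721, 0.25 and 0.501). Mice with at least 30 cells gave 0.395 for treated against untreated mice at 10 dpi. Leaving out 1 mouse at a time moved the difference between 10 and 7 dpi over 0.957 to 1.38 and treated against untreated mice at 10 dpi over -0.828 to 0.614, the latter without M10. No paired analysis was possible in the larger time-course experiment because its mice are numbered through all groups. In the smaller one the names repeat a number after a letter for the group, with nothing that ties equal numbers to a shared litter or batch, and a fit with the number as a block was not run.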
